A study of Mus musculus with 11 samples.

Results

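The RNA brought down with hnRNP A1 from nuclear extracts of HuR-lacking mouse embryonic fibroblasts (HuR KO MEFs) was compared with the total nuclear RNA of the same cells. The comparison used the 6 HuR KO arrays of the 11 in the series, 3 of hnRNP A1 IP RNA and 3 of nuclear RNA. A probe was kept when its detection p-value, which sets its signal against the negative control probes of the same array, was at most 0.01 on all 3 IP arrays or on all 3 nuclear RNA arrays. Of the 45281 probes in the table, 14058 (31.0%) were kept. The remaining 31223 probes were left out of every count of enrichment.

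All 6 samples came from MEFs isolated from mid-gestation HuR KO embryos and kept in culture, and the methods name no treatment of the cells. The labels number the samples 1 to 3 in each fraction, and the series' design text calls them independent experiments. The nuclear RNA was an aliquot of the pre-cleared extract. The rest of that extract was first incubated with control IgG beads. Its supernatant then went to the IP with the 4B10 antibody against hnRNP A1. The methods describe these cells as growing more slowly than HuR WT cells, and do not say whether they were 1 line or several. The 5 arrays of HuR WT MEFs, 3 of IP RNA and 2 of nuclear RNA, entered only the comparison of enrichments between the cell types, with its normalisation over 11 arrays.

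hnRNP A1 is an abundant nuclear RNA-binding protein that coats nascent transcripts, takes part in the choice of splice sites and shuttles between nucleus and cytoplasm. HuR, the product of Elavl1, binds U-rich and AU-rich elements in many pre-mRNAs and mRNAs and is known for its effect on their stability and translation. In a RIP-Chip assay the transcripts held in the precipitated complexes are amplified, labelled and read on an array, so a transcript that is a larger share of the IP RNA than of the input is called enriched and one that is a smaller share is called depleted.

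Since equal masses of IP and nuclear RNA were labelled, every value is relative to the other RNAs of the same sample, and a depleted transcript may still be present in the IP. RNA of the IgG control IP was not put on arrays, so RNA that sticks to beads or antibody was not measured here for any probe. The paper reports much less RNA from the IgG control pellets than from the hnRNP A1 pellets, too little for arrays. No table used here links a probe identifier to its gene. Probes are therefore described by their values and counts, and neither the HuR transcript nor fibroblast markers could be checked against the labels.

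The arrays of replicate 1 stood apart in both fractions. Over the kept probes, nuclear RNA replicates 2 and 3 correlated at r = 0.995 across probes, whereas replicate 1 correlated with each of them at 0.943. For the IP, replicates 2 and 3 correlated at 0.989, and replicate 1 with them at 0.922 and 0.930. The median SD of a probe over the 3 nuclear RNA arrays was 0.217 on the log2 scale, and it was 0.0726 over replicates 2 and 3. In the IP these SDs were 0.287 and 0.120. In a principal component analysis the first component, with 55.9% of the variance, separated IP from nuclear RNA, and the second, with 33.8%, separated replicate 1 from replicates 2 and 3. Mean deposited intensity was 224 to 326 on the nuclear RNA arrays and 165 to 206 on the IP arrays, which do not overlap. Detected probes numbered 14034 to 14878 per array in nuclear RNA and 14609 to 14649 in the IP.

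In HuR KO cells 1105 probes, 7.86% of the 14058 tested, were enriched in the hnRNP A1 IP and 1371, 9.75%, were depleted from it. A call required an adjusted p-value under 0.05 in limma and a difference over 2-fold between the mean log2 levels of the 3 IP and the 3 nuclear RNA arrays. The median fold was 2.43 among enriched probes and 2.46 among depleted ones. A difference over 3-fold was found for 223 enriched and 326 depleted probes, and one over 4-fold for 49 and 94. The largest fitted difference was 6.52-fold higher in the IP and 10.1-fold lower, each at a probe not detected on all 6 arrays. Called probes were thus mostly between 2-fold and 3-fold from the input by value.

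The bulk of the nuclear transcripts differed less from their input. The difference IP minus nuclear RNA had a median of 0.01 on the log2 scale, with 5% and 95% points of -1.30 and 1.23, and 80.9% of kept probes lay within 2-fold by value. Without the fold threshold, 2315 probes were higher and 2392 lower in the IP at an adjusted p-value under 0.05 (limma). A further 134 probes over 2-fold higher and 82 over 2-fold lower by value did not pass the adjusted p-value.

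The median of all probes is close to 0 because quantile normalisation over the 6 arrays gives IP and nuclear RNA 1 common distribution. With quantile normalisation within each fraction, which keeps the lower deposited intensities of the IP arrays, the median of all kept probes moved to -0.67 (log2), and 176 probes were enriched and 4541 depleted. Enriched probes then made up 3.73% of the calls, compared with 44.6% under the common distribution. When the values were centred on that shift, 1167 probes were enriched and 1315 depleted, and 1013 and 1216 of them were among the 1105 and 1371. Median scaling turned the balance of the calls round, with 1352 probes enriched and 1152 depleted (54.0% enriched), and 1008 and 932 among probes detected on all 6 arrays. Which direction held more probes thus depended on the scaling, and enrichment and depletion are given relative to the typical probe.

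**Figure D1:**
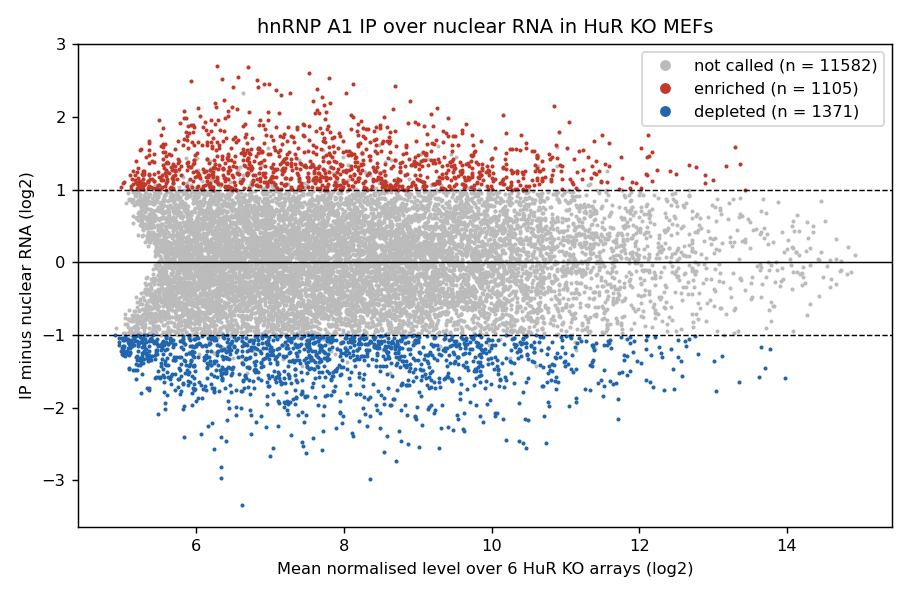
Difference between hnRNP A1 IP and nuclear RNA (log2, y axis) against the mean normalised level over the 6 HuR KO arrays (log2, x axis), 1 point for each of the 14058 kept probes, with dashed lines at 2-fold. The 1105 enriched probes (red) and 1371 depleted probes (blue) are spread over the range of levels, and depletion reaches farther from 0 than enrichment among brighter probes.

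Leaving out both arrays of replicate 1 raised the calls to 1319 enriched and 1400 depleted, of which 985 and 1109 were among the calls from all 6 arrays. Leaving out both arrays of replicate 2, or both of replicate 3, left 0 probes called in either direction by limma, and the cause was not tested. At an unadjusted p-value under 0.05 and over 2-fold, limma gave 1176 higher and 1520 lower without replicate 2, and 1087 and 1406 without replicate 3. With the replicate number as a block, limma called 1327 enriched and 1610 depleted without replicate 2, and 1259 and 1519 without replicate 3. Without a block, leaving out any 1 array alone gave 910 to 1345 enriched and 1139 to 1401 depleted probes, so the calls were lost only when both arrays of replicate 2 or both of replicate 3 were removed.

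**Figure D2:**
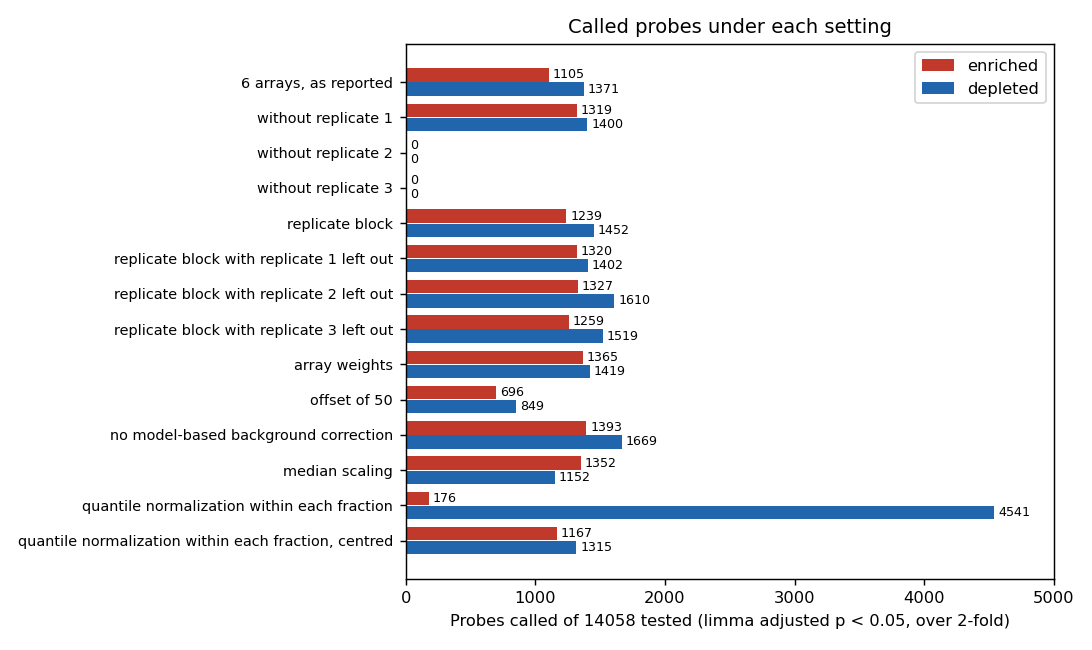
Number of probes called enriched (red bars) and depleted (blue bars) of the 14058 tested (x axis), for the reported fit and for other settings (y axis), each called by limma at an adjusted p-value under 0.05 and over 2-fold. The bars are at 0 without replicate 2 or 3 in the fit without a block, and the enriched bar is shortest among the remaining settings, at 176, with quantile normalisation within each fraction.

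Probes measured in both fractions were counted separately, because a probe kept through only 1 fraction is more likely to be higher there. Of the kept probes 11822 (84.1%) were detected on all 6 arrays, 1171 on every nuclear RNA array but not every IP array, and 1065 on every IP array but not every nuclear RNA array. Among those detected on all 6, 845 were enriched (7.15%) and 1019 depleted (8.62%), and enriched probes were 45.3% of the calls. The largest differences were 6.10-fold higher and 7.90-fold lower, and 29 enriched and 73 depleted probes were over 4-fold. Both directions were therefore present among transcripts that the arrays measured in the IP as well as in the input.

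The probe with the largest enrichment among those detected on all 6 arrays was ILMN_2631518. Its deposited intensities in nuclear RNA were 49.9, 116 and 72.1 in replicates 1, 2 and 3, and those in the IP were 217, 389 and 425. Normalised log2 levels were 6.19, 6.42 and 6.05 in nuclear RNA and 8.46, 8.93 and 9.10 in the IP. The lowest IP value was in replicate 1. That the IP and nuclear RNA arrays do not overlap was a condition of the choice for this and the other 3 named probes. The log2 enrichment was 2.61 ± 0.22 (SE, 3 arrays per fraction), which is 6.10-fold, with an adjusted p-value of 0.00194 in limma. Within the same-numbered pairs the IP was 4.82-fold, 5.69-fold and 8.27-fold higher. The probe went from the 19.8th percentile of kept probes in nuclear RNA to the 68.5th in the IP.

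ILMN_2530916 was next, with nearly equal nuclear RNA levels on the 3 arrays. Its deposited intensities were 67.3, 127 and 109 in nuclear RNA and 358, 333 and 525 in the IP. Normalised log2 levels were 6.54, 6.54 and 6.53 in nuclear RNA and 9.12, 8.73 and 9.36 in the IP. Replicate 2 gave the lowest IP level. The log2 enrichment was 2.53 ± 0.20 (SE), or 5.79-fold, with an adjusted p-value of 0.00192 in limma, and the pairs gave 5.98-fold, 4.57-fold and 7.11-fold.

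Both strongly enriched probes were dim in nuclear RNA, and both strongly depleted ones were bright there. ILMN_2669225 had the largest depletion among probes detected on all 6 arrays. Its deposited intensities were 885, 1276 and 1085 in nuclear RNA and 39.8, 100 and 82.3 in the IP. Normalised log2 levels were 9.91, 9.82 and 9.79 in nuclear RNA and 6.38, 7.22 and 6.97 in the IP. Replicate 1 was the lowest in the IP and the highest in nuclear RNA. The log2 difference was -2.98 ± 0.24 (SE), which is 7.90-fold lower, with an adjusted p-value of 0.00192 in limma. The pairs gave 11.5-fold, 6.03-fold and 7.09-fold lower levels, so replicate 1 raised the size of the difference without setting its direction.

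ILMN_1250103 showed the same order of arrays. Its deposited intensities were 1108, 1461 and 1241 in nuclear RNA and 74.5, 135 and 109 in the IP. Normalised log2 levels lay between 9.99 and 10.22 in nuclear RNA, highest in replicate 1, and were 7.11, 7.57 and 7.33 in the IP. The log2 difference was -2.73 ± 0.19 (SE), or 6.65-fold lower, with an adjusted p-value of 0.00191 in limma, and the pairs gave 8.65-fold, 5.39-fold and 6.32-fold. In nuclear RNA it lay at the 84.8th percentile of kept probes, and in the IP at the 42.5th. Without replicate 2 or without replicate 3, none of these 4 probes passed in limma without a block, with adjusted p-values of 0.0672 and 0.0963 for each of them, whereas their log2 differences stayed on the same side of 0 under all 18 alternatives run.

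**Figure D3:**
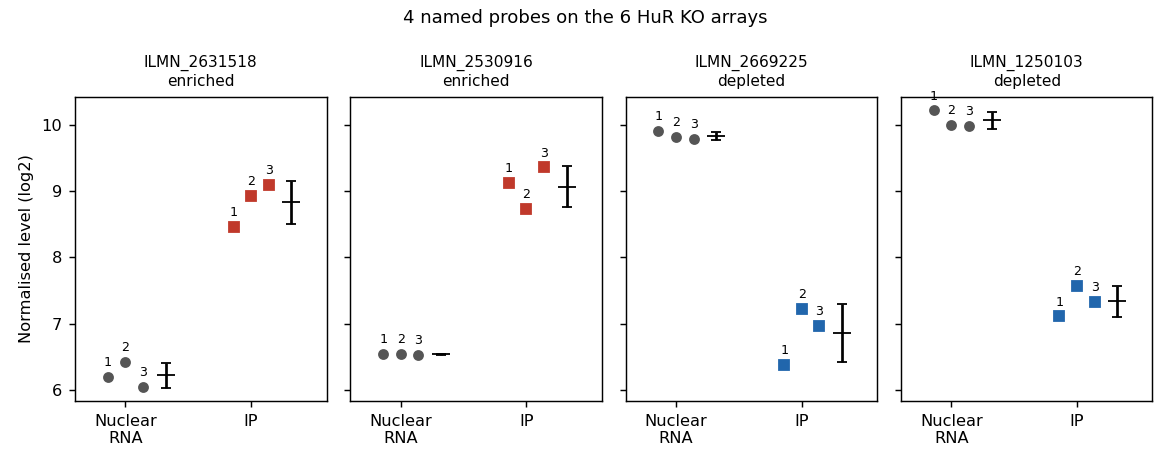
Normalised level (log2, y axis) of the 4 named probes on each HuR KO array, with nuclear RNA as circles and IP as squares, the replicate number above each point, and the mean and SD of 3 arrays as a bar beside them. The probes were chosen among those whose fractions do not overlap, and replicate 1 of the IP is the lowest IP point in 3 of them.

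For the dimmest called probes the fold is not a measurement but a bound. Of the 1105 enriched probes, 142 were above background on no nuclear RNA array and 118 on only some of them. Of the 1371 depleted probes, 192 were above background on no IP array and 160 on only some. For such probes the brighter fraction was set against the lowest signal that counted as detected on each array of the other fraction, or against the probe's own signal where that was higher. The IP was then at least 4.84-fold higher for the highest of the 142, with a median of at least 1.69-fold, and 34 of them kept a bound over 2-fold. The highest of the 192 was at least 7.67-fold lower in the IP, with a median of at least 1.53-fold, and 35 kept a bound over 2-fold. Most of these probes were thus enriched or depleted by a size that the arrays cannot resolve from 2-fold.

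Counted by detection alone, 326 probes were detected on all 3 IP arrays and no nuclear RNA array, and 341 on all 3 nuclear RNA arrays and no IP array. The first set had a median deposited intensity of 28.1 in the IP and reached 137, and the second had a median of 50.8 in nuclear RNA and reached 380. Both sets were dim. Of the whole table, 27420 probes were detected on none of the 6 HuR KO arrays, 11822 on all 6, and 5372 on 1 or 2 arrays of at least 1 fraction. With detection at a p-value of at most 0.05, the sets held 356 and 564 probes.

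Enrichment and depletion were also counted along the level of the transcript, in 5 bins of about equal size over the probes detected on all 6 arrays. In the dimmest bin, with mean log2 levels of 5.50 to 6.84, 4.69% of probes were enriched and 5.03% depleted. In the next 3 bins the shares were 7.61%, 8.76% and 8.08% for enrichment and 9.31%, 9.18% and 10.2% for depletion, and in the brightest bin, above 9.88, they were 6.60% and 9.43%. Probes over 4-fold were distributed less evenly. From the dimmest to the brightest bin, 1, 11, 12, 3 and 2 probes were enriched over 4-fold, compared with 1, 13, 21, 24 and 14 depleted over 4-fold. Enrichment over 4-fold was thus mostly found at middle levels and depletion over 4-fold at middle and high levels, which is given as counts with no test. The offset of the background correction compresses differences in the dimmest bin. Detection on all 6 arrays was required, and the lowest detected log2 levels were 5.30 to 5.47 in nuclear RNA and 5.34 to 5.35 in the IP. Large differences had little room in the dimmest bin, so its low counts are no result about dim transcripts.

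Because IP and nuclear RNA came from the same extracts, the difference was also taken within each same-numbered pair. Over 2-fold higher in the IP were 1699, 1359 and 1453 probes in pairs 1, 2 and 3, and over 2-fold lower were 2080, 1507 and 1484. Pair 1 had the widest differences, with an SD over probes of 0.89 on the log2 scale, compared with 0.79 and 0.81. The differences of pairs 2 and 3 correlated at 0.896 across the kept probes, and those of pair 1 with them at 0.718 and 0.778. These correlations are across genes of the same arrays, and genes are not independent replicates.

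In all 3 pairs together, 690 probes were over 2-fold higher and 747 over 2-fold lower in the IP, and 22 and 41 were over 4-fold. With median scaling 842 were higher and 588 lower, with quantile normalisation within each fraction 75 and 2954, and with an offset of 50 they were 415 and 457, so the larger direction depended on the scaling. Under the reported scaling, 652 and 737 of the 690 and 747 were also called by limma, and 534 and 572 were detected on all 6 arrays. Every one of the 1105 enriched and 1371 depleted probes lay on the same side of 0 in all 3 pairs, as a call on these same arrays favours. Without regard to size, 5090 kept probes were higher in all 3 pairs, 4788 lower in all 3, and 4175 differed in sign between pairs. On every IP array above every nuclear RNA array were 3429 kept probes (24.4%), against 7.86% called enriched, and 3503 (24.9%) were below, against 9.75% called depleted.

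Pair 1 was then set against probes chosen for going the same way in pairs 2 and 3, a choice that favours the same sign in pair 1. Of the 963 probes over 2-fold higher in both pair 2 and pair 3, 690 were over 2-fold higher in pair 1 as well, 273 were within 2-fold and 0 were over 2-fold lower. Of the 1019 probes over 2-fold lower in pairs 2 and 3, 747 were over 2-fold lower in pair 1, 271 were within 2-fold and 1 was over 2-fold higher. On the same side of 0 in pair 1 were 952 of the 963 and 980 of the 1019. In the other direction, 675 of the probes over 2-fold higher in pair 1 (39.7%) and 934 of those over 2-fold lower (44.9%) were within 2-fold in both other pairs.

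**Figure D4:**
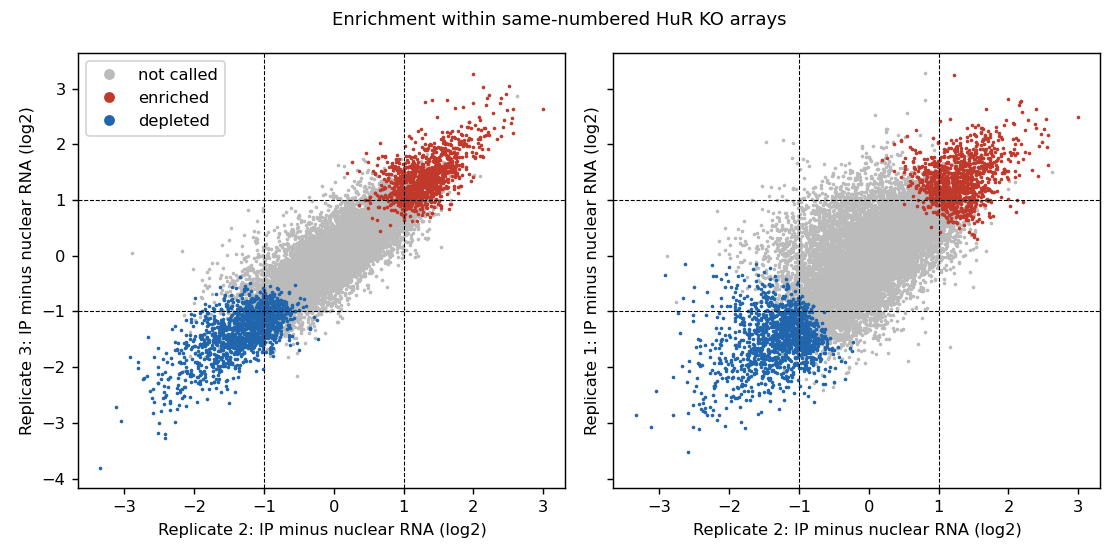
Difference between IP and nuclear RNA (log2) within same-numbered HuR KO arrays for the 14058 kept probes, with replicate 2 on both x axes and replicate 3 (left) or replicate 1 (right) on the y axes; dashed lines mark 2-fold and colours mark the probes called by limma. Replicates 2 and 3 lie close to a line (r = 0.896), and replicate 1 scatters more widely around replicate 2 (r = 0.718).

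The enrichments in HuR KO cells were set against those in HuR WT cells in 1 linear model of all 11 arrays. The question was whether an enrichment differed when HuR was absent. Over the same 14058 probes, 931 (6.62%) were enriched and 1049 (7.46%) depleted in HuR WT. Of the 1105 probes enriched in HuR KO, 1075 (97.3%) lay on the same side of 0 in HuR WT and 526 (47.6%) were called there too, with a median of 1.99-fold. Of the 1371 depleted ones, 1287 (93.9%) lay on the same side and 691 (50.4%) were called, with a median of 2.04-fold. Over all kept probes 51.3% were above 0 and 48.7% below 0 in HuR WT. Called the other way in HuR WT were 0 of the enriched and 3 of the depleted probes, 1 of the 3 over 4-fold in HuR KO. Read from the other side, 56.5% of the probes enriched in HuR WT and 65.9% of those depleted were also called in HuR KO. Only probes detected on all arrays of a HuR KO fraction could enter these HuR WT calls. Probes detected in HuR WT alone are thus missing, which favours such sharing. Among the 49 and 94 probes over 4-fold in HuR KO, 38 and 84 were called the same way in HuR WT. Since these probes were chosen by their HuR KO values, their smaller medians in HuR WT are no test of a difference.

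The test of the difference itself called few probes. With limma and an adjusted p-value under 0.05, the IP over nuclear RNA was higher in HuR KO than in HuR WT for 13 probes (0.0925%) and lower for 84 (0.598%). At an unadjusted p-value under 0.05 these were 767 and 923. The 13 had a median log2 enrichment of 1.39 in HuR KO and 0.04 in HuR WT, and the 84 had medians of -1.27 and 0.52. Of the 13, 12 were called enriched in HuR KO, against 7.86% of all kept probes. Of the 84, 62 were called depleted there, against 9.75%. The choice by a difference on these same arrays favours such calls and such medians, so they are no separate result. Of the 845 enriched and 1019 depleted probes detected on all 6 HuR KO arrays, 3 and 4 had a difference that passed.

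Nearly all of these probes were at background in at least 1 of the 4 groups. For 11 of the 13 and 76 of the 84, at least 1 of the 4 groups had no array above background, compared with 9.67% of all kept probes. Probes entered this test only through detection on all arrays of a HuR KO fraction, and no HuR WT array could admit one, so the filter favours differences in which a HuR KO fraction is the higher. Of the 84, 6 were detected on all 3 HuR KO IP arrays, and the others were kept through HuR KO nuclear RNA alone. No HuR KO IP array detected 74 of the 84, against 341 of all 14058 kept probes. No HuR WT nuclear RNA array detected 19 of the 84 and no HuR WT IP array 10, with no share over all kept probes given for the HuR WT groups. Of the 84, 42 were detected on all HuR KO nuclear RNA, HuR WT nuclear RNA and HuR WT IP arrays and on no HuR KO IP array. Of the 13, 3 were detected on all 3 HuR KO nuclear RNA arrays, and the others were kept through the HuR KO IP alone. No HuR WT IP array detected 11 of the 13, no HuR WT nuclear RNA array 9 and no HuR KO nuclear RNA array 9. The last compares with 326 of all 14058 kept probes. Some of the 13 thus had both HuR WT fractions at background, where the HuR WT enrichment is not a measured value. Where a group had no array above background, the size of the difference is at best a bound. It is undetermined where both fractions of a cell type lack signal. The counts depended on single arrays. Leaving out each of the 11 in turn gave 2 to 25 probes higher and 28 to 95 lower. The lowest of both came without HuR WT nuclear RNA replicate 1 and the highest of both without HuR KO IP replicate 1. With median scaling 1 and 16 probes passed, and with array weights 292 and 389.

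The 4 named probes went the same way in both cell types. In HuR WT, ILMN_2631518 was enriched 4.15-fold (log2 2.05 ± 0.22 SE) and ILMN_2530916 3.34-fold (1.74 ± 0.21). There ILMN_2669225 was 3.50-fold lower in the IP (log2 -1.81 ± 0.30) and ILMN_1250103 3.48-fold lower (-1.80 ± 0.26). All 4 probes were farther from 0 in HuR KO, which their choice as the largest differences in HuR KO favours. The difference between the cell types was 0.54 ± 0.30 on the log2 scale for ILMN_2631518, with an adjusted p-value of 0.515 in limma, and 0.78 ± 0.29 for ILMN_2530916, with an adjusted p-value of 0.311 in limma. It was -1.15 ± 0.40 for ILMN_2669225, with an adjusted p-value of 0.286 in limma, and -0.91 ± 0.34 for ILMN_1250103, with an adjusted p-value of 0.318 in limma. None of the 4 differences passed, which does not show that the enrichments were equal.

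**Figure D5:**
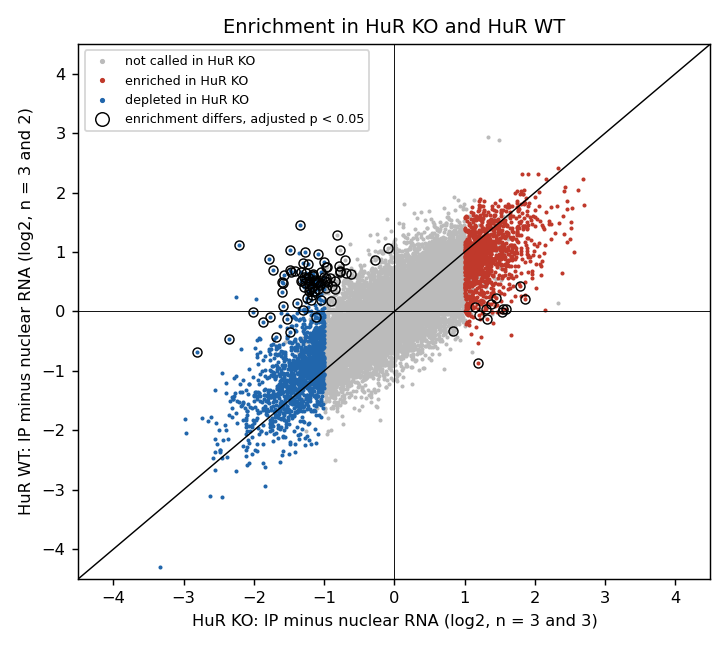
Difference between IP and nuclear RNA (log2) in HuR KO (x axis, 3 IP and 3 nuclear RNA arrays) and in HuR WT (y axis, 3 IP and 2 nuclear RNA arrays) for the 14058 kept probes, with the line of equality and black rings around the 13 and 84 probes whose enrichment was higher or lower in HuR KO (limma adjusted p-value under 0.05). The x values come from the fit to the 6 HuR KO arrays and the y values from the model of all 11 arrays. Most probes called in HuR KO (red and blue) lie on the same side of 0 in HuR WT, and most rings lie where HuR KO is depleted and HuR WT is not.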

How the data were processed

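The table the authors deposited holds a probe's intensity on each array, before normalisation between arrays, with its detection p-value. Of the deposited intensities of the 6 HuR KO arrays, 31.6% to 36.3% lie below 0 on each array, as after a background subtraction, and no source used here names the software of that step. The methods name background correction, quantile normalisation and log2 values in GeneArmada, and a test per probe at a false discovery rate under 0.05 and over 2-fold. Samples were grouped by their labels. The detection p-values beside the signal of HuR KO nuclear RNA replicate 3 carry the name of replicate 1; they ranked against the signal of replicate 3 at a Spearman correlation of -0.989 and against that of replicate 1 at -0.882, and were taken for replicate 3.

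The fits were made with limma 3.58.1 (R 4.3.3). A normal-exponential background model took its parameters from the detection p-values, an offset of 16 was added, and the 6 HuR KO arrays were quantile normalised and put on the log2 scale. IP minus nuclear RNA was fitted over the kept probes with moderated variances, and p-values were adjusted by Benjamini-Hochberg. The offset makes folds of dim probes too small. The difference between HuR KO and HuR WT was a contrast of 4 group means over the 11 arrays, normalised together. Named probes are the 2 with the largest enrichment and the 2 with the largest depletion among called probes detected on all 6 arrays whose fractions do not overlap. The scripts were tested on simulated data. The number of arrays limits the precision, and no counts or depth exist for arrays.

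Nuclear RNA and IP share extracts, which the reported fit leaves out. Across probes, deviations from the group mean correlated at 0.66, 0.45 and 0.56 between same-numbered arrays, so same-numbered arrays were treated as pairs in the blocked fit. Replicates 2 and 3 crossed correlated at 0.58 and 0.51, so these correlations cannot tell those 2 pairs apart. The comparison, its lists and its tests were chosen with earlier results of these data known. Gene lists, markers and the RefSeq filter were not used here, because probes are not paired with genes.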

Additional observations from a re-analysis of the deposited data

Results flagged for a closer look

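The enrichment of 13 probes was higher, and that of 84 probes lower, in HuR KO than in HuR WT, which was a difference between the cell types under the same contrast (limma, adjusted p-value under 0.05). Without HuR WT nuclear RNA replicate 1 the counts were 2 and 28, and without HuR WT nuclear RNA replicate 2 they were 9 and 51. Without HuR WT IP replicate 2 or 3 they were 3 and 33 or 4 and 44. Without HuR KO nuclear RNA replicate 2 or 3 they were 3 and 41 or 4 and 42. Without HuR KO IP replicate 1, 2 or 3 they were 25 and 95, 5 and 54, or 4 and 46. The low signal of most of these probes in at least 1 group was given with the result, and its part in the difference was not tested.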

How the results depend on the processing

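Counts of enriched and depleted probes moved by over 1.5 times with an offset of 50 (696 and 849), with quantile normalisation within each fraction (176 and 4541) and with a threshold of 4-fold (49 and 94). Among probes detected on all 6 arrays the within-fraction counts were 117 and 3648. Probes over 2-fold in all 3 pairs numbered 415 higher and 457 lower with the offset of 50, and 75 and 2954 within each fraction. Leaving out single arrays or a replicate number gave 0 to 1345 enriched and 0 to 1401 depleted probes, and 0 to 1020 and 0 to 1047 among those detected on all 6. The values of 0 came without replicate 2 and without replicate 3, and each single array left out kept both counts within 1.5 times. The paired fit, with a replicate block, called 1239 enriched and 1452 depleted probes, or 944 and 1082 detected on all 6, and included all 1105 and 1371 of the reported calls; for the difference between the cell types it called 19 and 75. It moved none of these counts by over 1.5 times. The methods' test per probe called 851 and 1044 after adjustment. Detection at a p-value of at most 0.05 gave 564 probes on all nuclear RNA arrays and no IP array. For the difference between HuR KO and HuR WT, an offset of 50 gave 1 probe higher and 19 lower, median scaling 1 and 16, array weights 292 and 389, and leaving out each array 2 to 25 and 28 to 95. Centring within each fraction and the replicate block with a replicate number left out were added after the data were seen. Low signal limits the sizes of differences, since 142 enriched and 192 depleted probes had a fraction with no array above background.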
